A study of Mus musculus with 13 samples.

Results

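The proteasome subunit genes were taken as every gene of the count table whose GENCODE M21 name is Psma, Psmb, Psmc, Psmd, Psme or Psmf followed by a number, which gave 44 of 55335 genes. Names ending in -ps, which mark pseudogenes, were left out, and genes with few or no counts were kept. The 44 genes comprise 7 alpha and 7 beta subunits of the standard core, 3 immune core subunits, 2 tissue-restricted core subunits, 6 ATPases and 14 non-ATPase genes (Psmd1 to Psmd14) of the 19S particle, 4 other activators and 1 inhibitor.

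Germ cells carrying the Oct4-GFP (Pou5f1-GFP) transgene were sorted from both ovaries of single female mouse embryos at E17.5, when fetal oocytes are in meiotic prophase, and 1 QuantSeq 3′ tag library was made from each of 13 embryos. In the constitutive cross, KO embryos (n = 3) were homozygous for an Nr3c1 deletion allele made earlier with a β-actin Cre, and WT embryos (n = 3) were the controls. In the conditional cross, cKO embryos (n = 4) were floxed at Nr3c1, the gene for the glucocorticoid receptor (GR), and carried the tamoxifen-dependent Cre Pou5f1-CreERT2, while flox embryos (n = 3) were Cre-negative controls homozygous for the floxed allele. All dams of the conditional cross received tamoxifen at 125 μg/g at E10.5, and no tamoxifen is described for the constitutive cross. The strain label of every library lists Tg(Pou5f1-EGFP)2Mnn and Nr3c1tm1.1Jda, and that of the conditional cross also lists Pou5f1tm1.1(cre/Esr1*)Yseg, in the Cre-negative controls too. The KO embryos lacked the receptor in every tissue, so their germ cells developed among GR-deficient somatic cells, whereas CreERT2 was driven from Pou5f1 in the germ line.

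The proteasome is the protease complex that degrades proteins marked with ubiquitin. Its barrel-shaped core is built from rings of alpha subunits, which gate the entrance, around rings of beta subunits, which include the active sites. The 19S regulatory particle sits on the alpha ring, where its ATPase ring unfolds the substrate and its non-ATPase subunits bind ubiquitin, remove it and hold the lid together. Interferon replaces the catalytic beta subunits by immune forms. PSMA8 is an alternative alpha subunit known as the testis form.

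The libraries held 2048706 to 3674989 counts, so that 1 count was worth 0.272 to 0.486 CPM (counts relative to the library total, after TMM scaling). Each library was a single embryo, so p-values measure the spread between embryos. Summed markers of meiotic oocytes (10 of 10 with counts) reached 11299 to 18622 CPM in every library. Markers of ovarian somatic cells (14 of 15 with counts, Tcf21 at 0) summed to 117 to 394 CPM, erythroid markers (5 of 8, with Hbb-y, Hba-x and Alas2 at 0) to 0 to 1263 CPM, the highest being flox replicate 1, and endothelial markers (5 of 5) to 8.05 to 104 CPM. Leukocyte markers (10 of 10 with counts) summed to 0.454 to 2.45 CPM in WT, 12.5 to 74.9 CPM in KO, 0 to 13.9 CPM in flox and 23.1 to 33.2 CPM in cKO, without overlap between control and GR-deficient libraries in either cross. Different genes carried these sums: C1qc (149 counts in KO replicate 3), Tyrobp (48 in KO replicate 2) and C1qb (at most 22) in KO, and mainly Lyz2 (84, 39, 65 and 79 counts) in cKO, while Lyz2 was at 0 in KO and C1qa, C1qb, C1qc and Ptprc were at 0 in cKO. Nr3c1 itself was at 46.0, 29.1 and 58.7 CPM in WT, 34.2, 26.3 and 73.4 CPM in KO, 46.5, 46.7 and 104 CPM in flox, and 59.2, 48.4, 30.1 and 72.8 CPM in cKO. It overlapped between the groups in both crosses (two-sided exact permutation tests, p = 0.9 in the constitutive and p = 0.6 in the conditional cross). Counts over the whole gene do not single out the deleted exon, so they check neither label.

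Proteasome transcripts were abundant, and the total was steady from embryo to embryo. Summed over the 44 genes, the level was 6182 CPM ± 473 (SD, n = 13), between 5467 and 6994 CPM, a coefficient of variation of 7.66%. Of the 44 genes, 40 passed the filter on low counts and 36 lay above the median of the 13086 genes tested, with 14 in the highest decile, that is above 90% of them. The 14 genes of the standard core summed to 2078 CPM ± 369 and the 20 genes of the 19S particle to 3643 CPM ± 262 (SD, n = 13). The core sum varied more between embryos, with a coefficient of variation of 17.8% against 7.19% for the 19S sum. The sums pool unequal numbers of genes, and Psma2 alone held 660 CPM ± 246 of the core sum, with 1243 CPM in flox replicate 1. For single genes the median coefficient of variation was 36.7% in the core and 26.3% in the 19S particle. Levels are given per tag because a 3′ tag library reads each transcript once near its end, which makes the count of a gene independent of its length. On this scale the median 19S gene was at 1.54 times the level of the median core gene (libraries 0.994 to 2.09 times), and after division by exon length the ratio was 1.20.

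**Figure D1:**
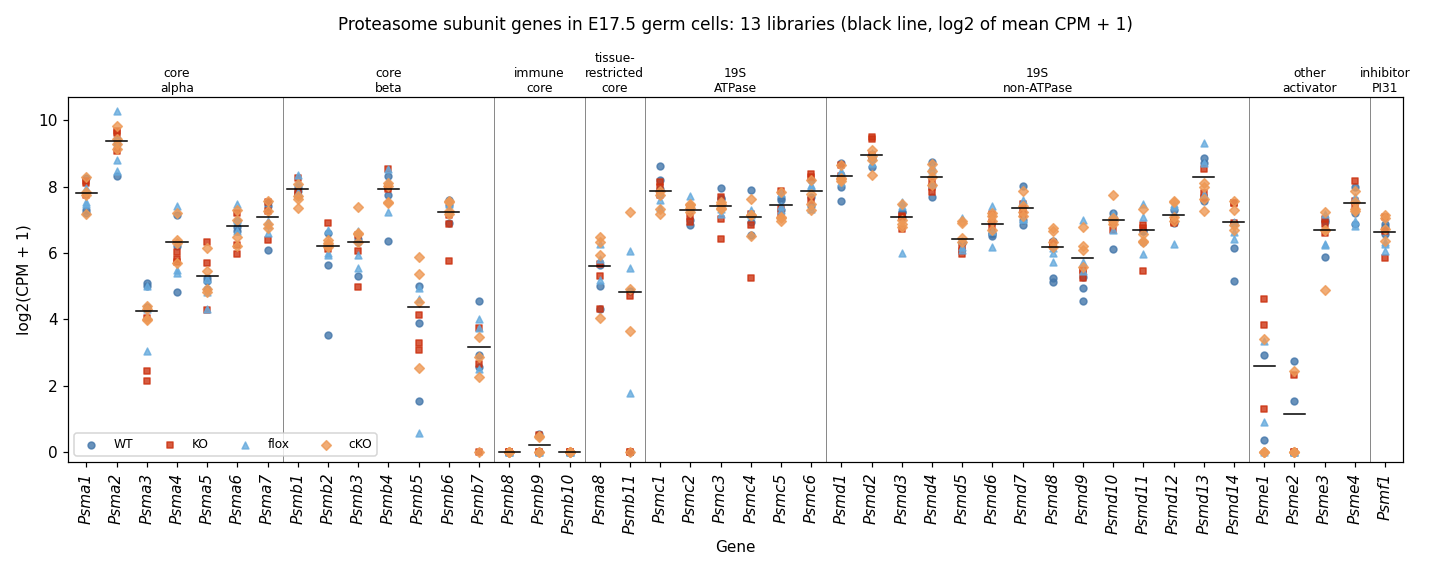
Level of each of the 44 proteasome subunit genes in each of the 13 libraries, as log2(CPM + 1) on the vertical axis, with 1 point per library coloured and shaped by group and a black line at the log2 of the mean CPM + 1. The 6 ATPases lie close together between mean levels of 134 and 233 CPM, while the beta subunits range from 8 CPM for Psmb7 to 244 CPM for Psmb4 and the immune subunits lie at or near 0.

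The alpha genes ranged from 17.9 to 660 CPM, with Psma2 far above the rest. Psma2, an alpha ring subunit, was the highest of all 44 genes at 660 CPM ± 246 (SD, n = 13), equal to 180 CPM per kilobase of exon. Its levels were 617, 320.1 and 688 CPM in WT, 785, 542 and 817 CPM in KO, 1243, 440.3 and 355 CPM in flox, and 910.0, 565, 683 and 619 CPM in cKO. The flox library at 1243 CPM was the highest of the 13, and all 4 groups overlapped. Psma3, another alpha ring subunit, was the lowest of the standard alpha genes at 17.9 CPM ± 9.6, or 4.60 CPM per kilobase of exon. The 7 alpha genes had a median of 112 CPM. The 14 genes of the standard core spanned an 82.6-fold range, from Psma2 down to the beta gene Psmb7. The 3′ ends of Psma3 and Psmb7 are covered by other genes, and the part of this in their low counts was not tested.

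Among the beta subunits, the 3 that carry the active sites stood at unequal levels. Psmb6, the caspase-like subunit, was at 150 CPM ± 38 (SD, n = 13), Psmb5, the chymotrypsin-like subunit, at 19.8 CPM ± 16.6, and Psmb7, the trypsin-like subunit, at 8.0 CPM ± 6.3. Per kilobase of exon these were 80.0, 22.0 and 2.34 CPM. The complex itself holds these subunits in equal numbers. The last 500 bases of Psmb7 are wholly covered by another gene, Nek6. The part of this overlap in its low count was not tested, so the unequal counts need not be unequal transcript levels. Psmb6 was at 172, 191 and 119 CPM in WT, 139, 52.5 and 117 CPM in KO, 153, 158 and 177 CPM in flox, and 152, 143, 183 and 189 CPM in cKO, and 1 KO library was the lowest of the 13. Psmb7 was at 6.64, 22.5 and 4.89 CPM in WT, 0, 5.35 and 12.3 CPM in KO, 4.65, 12.4 and 15.0 CPM in flox, and 0, 10.2, 6.24 and 3.80 CPM in cKO, and the 4 groups overlapped. The highest beta gene was Psmb4, a non-catalytic subunit, at 214, 80.7 and 316 CPM in WT, 250.5, 245 and 367 CPM in KO, 371, 149 and 285 CPM in flox, and 186, 180.4, 260.0 and 274 CPM in cKO, a mean of 244 CPM ± 83.

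The immune core subunits had 0 or 1 counts per library in all 4 groups. Psmb8 and Psmb10 had 0 counts in each of the 13 libraries. Where reads could be assigned to the gene, a count of 0 allows up to 0.816 to 1.46 CPM per library (3 counts, counting error only). The last 500 bases of Psmb8 and Psmb10 are wholly covered by another gene, and how reads there were assigned is not known. Their 0 counts may therefore set no limit. Psmb9 had at most 1 count in a library. No immune subunit could be tested on such counts. The counts were as low in KO and cKO libraries, where the leukocyte markers were higher. With counts that may set no limit, this says nothing on leukocyte carry-over, whose part was not tested. B2m, the light chain of MHC class I, and Tap2, a peptide transporter of the same pathway, were also at 0 in every library. The last 500 bases of B2m are wholly covered by another gene too, while those of Tap2 are not covered.

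The tissue-restricted subunits were both counted. Psma8, the testis form of an alpha subunit, was at 47.4 CPM ± 23.8 (SD, n = 13). Its levels were 19.025, 49.2 and 31.3 CPM in WT, 19.005, 38.4 and 49.7 CPM in KO, 76.1, 35.5 and 55.8 CPM in flox, and 15.6, 60.1, 88.1 and 78.7 CPM in cKO. It was counted in every library, and the groups overlapped. Its relative Psma7, the standard subunit of that position, was at 134 CPM ± 41. Psmb11, the catalytic subunit of the thymus cortex, was at 27.4 CPM ± 41.9 and had counts in 8 libraries and none in 5.

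The ATPase ring of the 19S particle had the narrowest range of the 4 main classes. The means of its 6 genes lay between 134 CPM for Psmc4 and 233 CPM for Psmc6, a 1.73-fold range. Psmc6 was at 205, 168 and 293 CPM in WT, 331, 315 and 192 CPM in KO, 263, 256 and 161 CPM in flox, and 292, 219.8, 156 and 175 CPM in cKO. Psmc4 was at 121, 236 and 92.7 CPM in WT, 142, 113 and 36.5 CPM in KO, 139, 156 and 144 CPM in flox, and 89.3, 141, 141 and 195 CPM in cKO. The ranges of Psmc6 and Psmc4 over the libraries overlapped, and differences in level between the 6 genes were not tested. Among the 14 non-ATPase genes, Psmd2, a scaffold subunit of the base, was the highest at 494 CPM ± 108, followed by Psmd1, the other large scaffold subunit, at 318 CPM ± 65, the ubiquitin receptor Psmd4 at 309 CPM ± 73 and the lid subunit Psmd13 at 308 CPM ± 142. Psmd9, which like Psmd5 and Psmd10 is an assembly chaperone of the base and not a subunit of the finished particle, was the lowest at 56.3 CPM ± 31.0. These chaperones are counted among the 19S genes here. The 20 genes of the 19S particle spanned an 8.78-fold range.

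Of the other activators, Psme4, the PA200 activator known from spermatogenesis and chromatin, was the highest at 179 CPM ± 53 and Psme3, the nuclear PA28 gamma, was at 102 CPM ± 35 (SD, n = 13). Psme4 was at 116, 249.9 and 147 CPM in WT, 170.3, 189 and 287 CPM in KO, 125, 205 and 110.1 CPM in flox, and 186, 151, 230.2 and 160.5 CPM in cKO. The interferon-inducible pair Psme1 and Psme2, which form PA28 alpha and beta, was low, at 4.98 CPM ± 7.21 and 1.23 CPM ± 2.08. Psme1 had 15, 0 and 1 counts in WT, 35, 3 and 53 in KO, 0, 2 and 19 in flox, and 0, 0, 0 and 28 in cKO, so that it reached 15 or more counts in 1 or 2 libraries of each group, and the groups overlapped. Psme2 had 13, 0 and 7 counts in WT, 0, 0 and 9 in KO, 0 in all 3 flox libraries and 0, 0, 12 and 0 in cKO, and was not tested. Psmf1, the inhibitor PI31, was at 98.9 CPM ± 26.8.

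**Figure D2:**
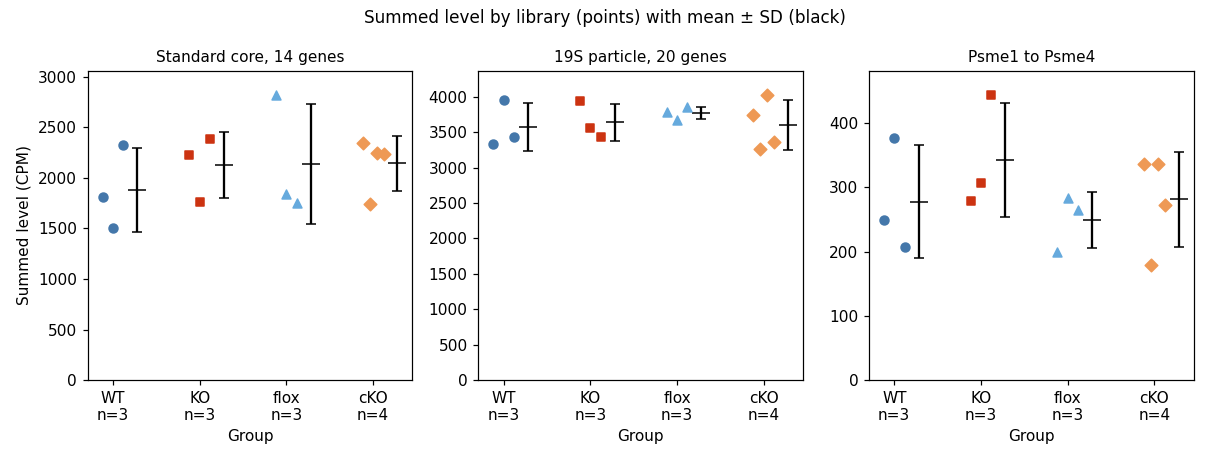
Summed CPM of the 14 standard core genes, the 20 genes of the 19S particle and the 4 other activators, each point 1 library, with the mean ± SD of the group in black; the vertical axes start at 0. The groups overlap in each panel, and the flox libraries of the 19S panel lie within 3679 to 3854 CPM.

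Several of the low levels lay at genes whose 3′ end is shared with another gene. The deposited gene lengths equal the whole interval from the first to the last base of each gene, while the counting settings and how reads in overlapping intervals were assigned are not given in the sources used here. Another gene covered some of the last 500 bases of 7 of the 44 intervals (mm10). These were Psma3 (covered by 3110056K07Rik), Psmb7 (Nek6), Psmb8 (Gm20496), Psmb10 (Gm16156), Psmc3 (Slc39a13), Psmd1 (Gm21972) and Psme1 (Emc9, 2.8% of the 500 bases). The median count of these genes was under 50 in 5 of 7, against 4 of 37 among the genes without such overlap, and the medians of the median counts were 17 and 319. Psmd1 and Psmc3 were overlapped and yet high, although only 1 of the 3 annotated 3′ ends of Psmc3 was covered. Psmb5, Psmb9, Psmb11 and Psme2 were low without overlap. Over all 21398 protein-coding genes of the annotation, the median count was under 50 for 84.6% of the 3370 genes whose last 500 bases were wholly overlapped, 70.7% of the 914 partly overlapped and 66.8% of the 17114 without overlap, and it was 0 for 65.0%, 41.9% and 43.2% of them. B2m and Psmg3 were also wholly overlapped there, while Tap2 was not overlapped. The part of the overlap in the low counts was not tested. Of 5 named copies in the table (Psmb5-ps, Psmb6-ps, Psmb6-ps2, Psmb7-ps2 and Psme2b), 2 had counts, with 19 for Psmb6-ps and 1 for Psmb6-ps2 over all libraries. Whether reads of Psmb5, Psmb6, Psmb7 or Psme2 were split with these copies was not tested, which leaves their counts uncertain.

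**Figure D3:**
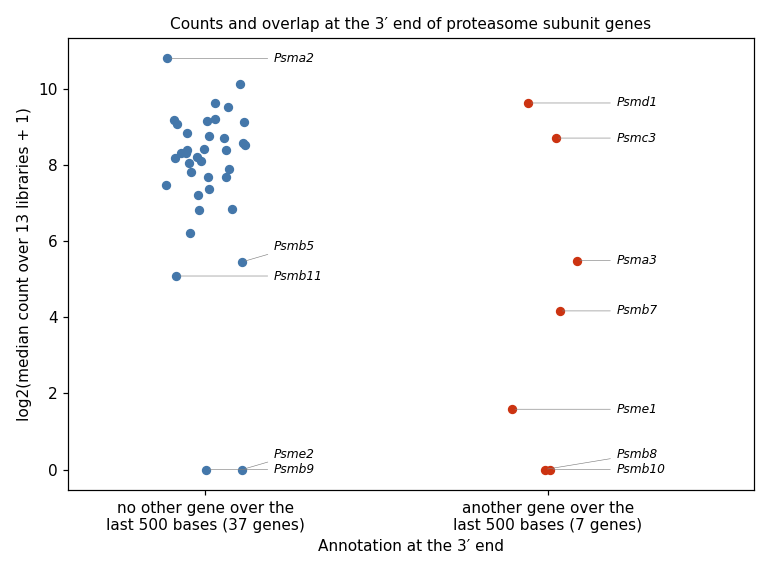
Median count over the 13 libraries for each of the 44 genes, as log2(count + 1) on the vertical axis, split by whether another gene covers part of the last 500 bases; each point is 1 gene and the genes under discussion are named. The overlapped genes fall into Psmd1 and Psmc3 at the level of most other subunits and 5 genes with median counts under 50.

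Psmb11 and Psmb5 were counted unevenly across embryos, with coefficients of variation of 153% and 83.9%. They lie next to each other on chromosome 14, Psmb5 at chr14:54614119-54618022 on the minus strand and Psmb11 at chr14:54621433-54629556 on the plus strand (mm10), with 3410 bases between the intervals and their 5′ ends facing. Psmb5 had 31, 65 and 7 counts in WT, 43, 18 and 17 in KO, 56, 67 and 1 in flox, and 63, 147, 109 and 14 in cKO. Psmb11 had 0, 58 and 0 counts in WT, 66, 0 and 0 in KO, 109, 149 and 5 in flox, and 33, 379, 80 and 0 in cKO. The 7 libraries with the most Psmb5 counts, 43 to 147, held 33 to 379 Psmb11 counts, and the 6 libraries with the fewest, 1 to 31, held 0 to 5. High and low libraries occurred in all 4 groups. The pattern was noticed in these counts and is given as a description over 13 libraries that share the same pair of neighbouring intervals.

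**Figure D4:**
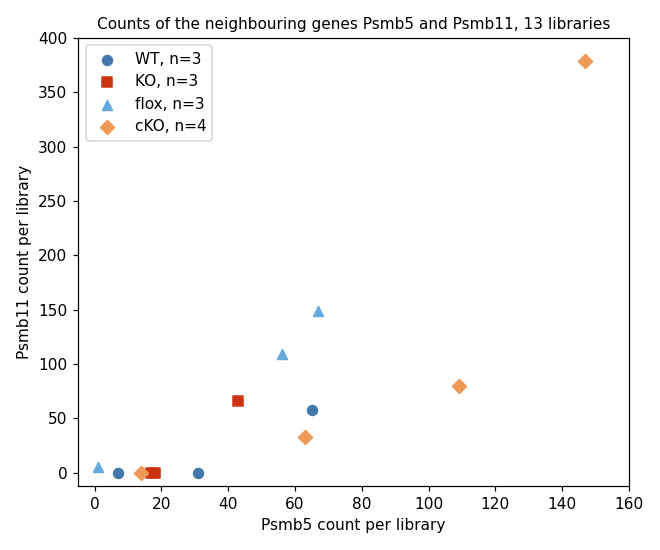
Counts of Psmb11 (vertical axis) against counts of Psmb5 (horizontal axis), each point 1 of the 13 libraries, coloured and shaped by group. Libraries with over 40 Psmb5 counts hold 33 to 379 Psmb11 counts, and those with fewer hold 0 to 5, with both kinds in each group.

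The spread between embryos was smaller for the proteasome genes than for most genes tested, which sets how small a change could be seen. The median biological coefficient of variation was 0.348 for the 40 tested members and 0.700 for all 13086 genes. The members are also more abundant than most genes, with a median at the 86.6th percentile of the tested genes, and over the 40 members the coefficient fell with the mean level (Spearman's rho -0.83 across genes, which share the same libraries and depth).

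The comparison of KO with WT asks which transcripts depend on GR when it is missing from the whole embryo. No proteasome gene passed the test: 0 of 40 had an adjusted p of at most 0.05 in edgeR's quasi-likelihood F test, adjusted after Benjamini and Hochberg, as for all 13086 genes (0%). At an unadjusted p under 0.05 there was 1 of 40, against 5.82% of all genes. The median log2 fold change of the 40 genes was -0.03, and -0.03 over all genes tested, and 18 of 40 were above 0 (47.9% of all genes). The 95% interval lay inside a 2-fold change either way for 13 of 40 members and for 11.6% of all genes.

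Psmd14, the deubiquitinase of the lid, had the lowest p. It was at 69.9, 34.9 and 118 CPM in WT, 181, 118 and 181 CPM in KO, 84.9, 98.2 and 121 CPM in flox, and 155, 114, 189 and 102 CPM in cKO. Its log2 fold change was 1.10 (SE 0.40, adjusted p = 0.847 by edgeR's test), KO and WT just overlapped, and the exact permutation test gave p = 0.2, with 0.1 the smallest that 3 against 3 libraries allow. The log2 fold change was 1.62 without WT replicate 3 and 0.77 without WT replicate 2. Psma3 followed, with 33.2, 19.6 and 31.0 CPM in WT, 3.4, 15.6 and 4.40 CPM in KO, 19.019, 31.1 and 7.27 CPM in flox, and 15.2, 19.9, 14.7 and 18.6 CPM in cKO. All 3 KO libraries were lower than the WT libraries, at a log2 fold change of -1.84 (SE 0.93, adjusted p = 0.847 by edgeR's test), and without KO replicate 2 the value was -2.81. The KO libraries held only 9, 32 and 10 counts of Psma3. Its last 500 bases are wholly covered by another gene, and the part of this was not tested. Psmd2, the scaffold subunit, was at 474, 387 and 455 CPM in WT, 719, 689 and 491 CPM in KO, 418, 475 and 515 CPM in flox, and 543, 327, 446 and 484 CPM in cKO, with a log2 fold change of 0.53 (SE 0.27, adjusted p = 0.849 by edgeR's test). KO libraries lay above all WT libraries for 2 of 40 genes, Psmd2 and Psmd6 (3.79% of all genes), and below them for 2 of 40, Psma3 and Psmd5 (5.67% of all genes). Each of these 4 genes had the smallest exact permutation p the design allows, 0.1. They were picked because their groups did not overlap, which itself gives this value, so it adds no support.

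By class, 6 of 14 standard core genes and 8 of 20 genes of the 19S particle were above 0. The summed core level was 1880 CPM ± 414 in WT and 2126 CPM ± 323 in KO, and the summed 19S level was 3573 CPM ± 333 in WT and 3644 CPM ± 261 in KO (SD, n = 3 each). For neither sum were the groups separate. The summed leukocyte markers were higher in KO, and the summed endothelial markers were at 34.8 to 47.3 CPM in WT and 8.05 to 30.8 CPM in KO. The endothelial genes did not move together. Pecam1 (39, 77 and 112 counts in WT, 65, 4 and 11 in KO) and Tek (11, 13 and 26, against 12, 47 and 1) overlapped. Cdh5 was lower in KO (31, 8 and 16, against 2, 0 and 7), and Kdr and Emcn had at most 10 counts in these libraries. The part of these markers in the member values was not tested.

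**Figure D5:**
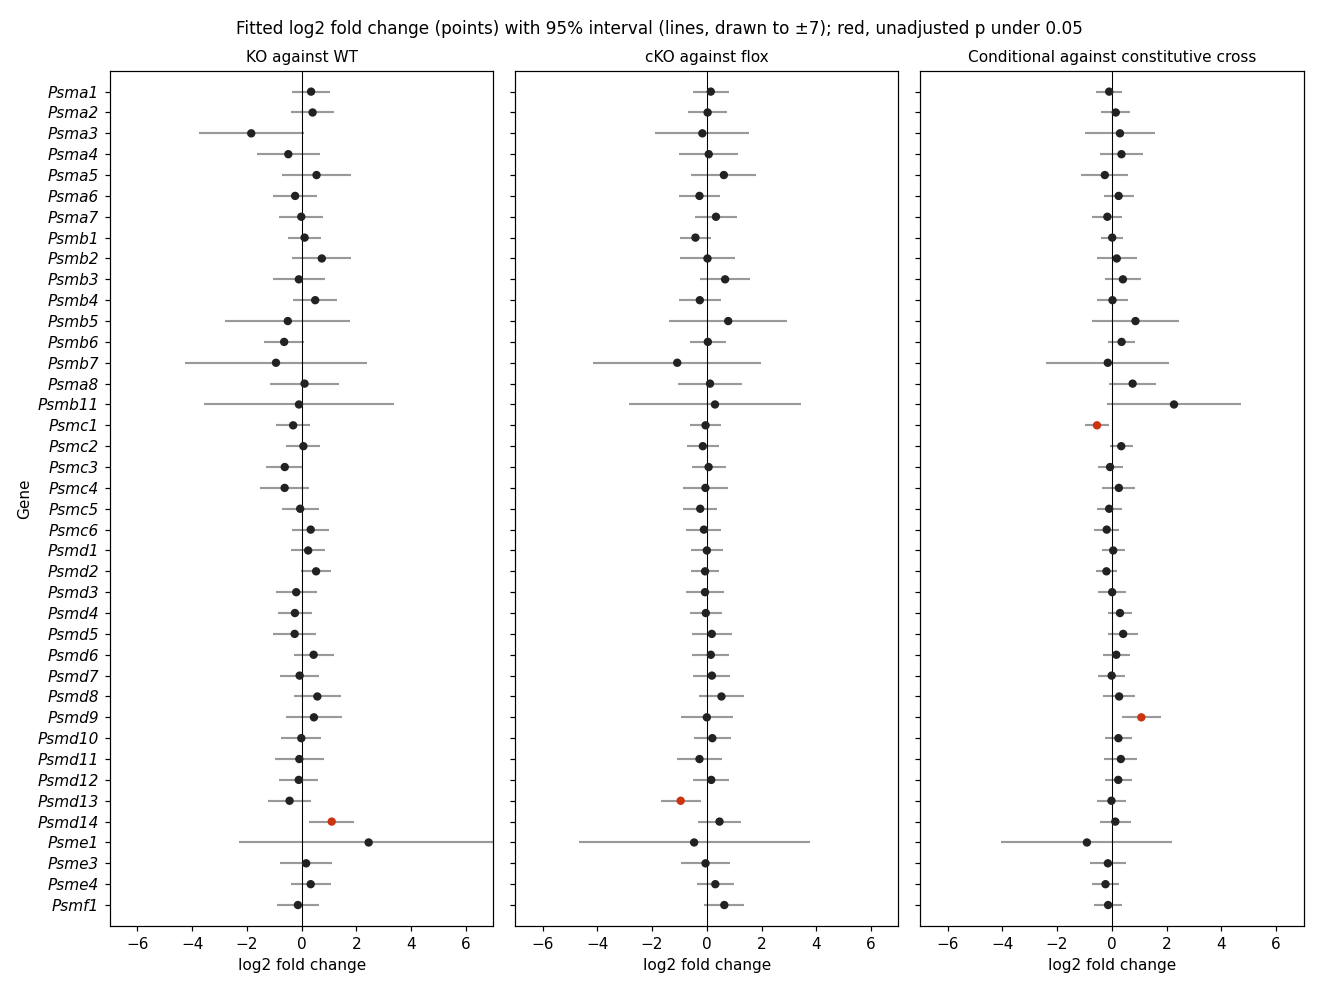
Fitted log2 fold change of the 40 tested members (points) with the 95% interval (lines, drawn to ±7) for KO against WT, cKO against flox and the conditional against the constitutive cross; red points have an unadjusted p under 0.05. Most points lie near 0, and the widest intervals belong to Psme1, Psmb11, Psmb7, Psmb5 and Psma3.

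The comparison of cKO with flox asks the same of a deletion started in the germ line. Again 0 of 40 members passed edgeR's test at an adjusted p of at most 0.05, as for all genes (0%), and 1 of 40 had an unadjusted p under 0.05 (3.19% of all genes). The median log2 fold change was 0.03 over the members and -0.01 over all genes, with 23 of 40 members above 0 (49.3% of all genes). The 95% interval stayed inside a 2-fold change for 22 of 40 members and for 14.9% of all genes.

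Psmd13, a subunit of the lid, had the lowest p, at 466, 419 and 189.8 CPM in WT, 225, 200.3 and 365 CPM in KO, 636, 219 and 413 CPM in flox, and 153, 194, 272 and 254 CPM in cKO. Its log2 fold change was -0.95 (SE 0.35, adjusted p = 0.9998 by edgeR's test), cKO and flox overlapped, and the exact permutation test gave p = 0.114, with 0.0286 the smallest that 4 against 3 libraries allow. The value rested in part on flox replicate 1 at 636 CPM, and without it the log2 fold change was -0.53. Psmf1, the inhibitor, was at 108, 93.2 and 116 CPM in WT, 56.6, 133 and 99.4 CPM in KO, 65.1, 76.4 and 79.0 CPM in flox, and 141, 81.6, 132 and 104 CPM in cKO, and all cKO libraries were above all flox libraries. Its log2 fold change was 0.64 (SE 0.35, adjusted p = 0.9998 by edgeR's test). Psmb1, a non-catalytic beta subunit, was at 253, 207 and 234 CPM in WT, 227, 212 and 308 CPM in KO, 328, 282 and 228 CPM in flox, and 163, 196, 209 and 269.5 CPM in cKO, with a log2 fold change of -0.41 (SE 0.27, adjusted p = 0.9998 by edgeR's test). The groups did not overlap for 2 of 40 members higher in cKO, Psmf1 and the lid subunit Psmd8 (2.18% of all genes), and for 0 of 40 lower (2.79% of all genes). The exact permutation test gave p = 0.0571 for each of these 2 genes. They too were picked because their groups did not overlap, so the value adds no support.

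The summed core level was 2141 CPM ± 593 in flox (n = 3) and 2142 CPM ± 275 in cKO (n = 4), and the summed 19S level was 3772 CPM ± 88 in flox and 3598 CPM ± 355 in cKO (SD). The flox mean of the core included 2823 CPM in replicate 1, which also had the highest erythroid markers, 1263 CPM against 78.4 to 397 CPM in the other conditional libraries. The part of those cells in the proteasome values was not tested, and in sorted bulk samples fewer cells of a type cannot be told apart from less RNA per cell.

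No member behaved differently in the 2 deletions by the test of that difference. For the cKO effect minus the KO effect, 0 of 40 members passed edgeR's test at an adjusted p of at most 0.05 (0% of all genes) and 0 of 40 had an unadjusted p under 0.05 (4.39% of all genes), with 19 of 40 above 0 (52.1% of all genes). The lowest p belonged to Psmd2, whose effects differed by -0.59 on the log2 scale (SE 0.37), Psmc3, an ATPase, by 0.68 (SE 0.44), and Psmf1, by 0.78 (SE 0.51), each with an adjusted p of 0.9999 by edgeR's test. Psmc3 was at 196, 200.2 and 247 CPM in WT, 205, 84.1 and 130.2 CPM in KO, 142, 159 and 184 CPM in flox, and 175, 161, 158 and 183 CPM in cKO. Its KO libraries spread widest, and its groups overlapped in both crosses. The median SE of this difference was 0.52 for the members, and no member had a 95% interval within 1 of 0 on the log2 scale, so a difference of that size between the effects was compatible with the interval of each member on at least 1 side.

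The crosses themselves differ in strain alleles and in tamoxifen, which cannot be told apart here. Between the 7 conditional and the 6 constitutive libraries, 0 of 40 members passed edgeR's test at an adjusted p of at most 0.05, and 0.00764% of all genes did. At an unadjusted p under 0.05 there were 2 of 40 (5.59% of all genes). The median log2 fold change was 0.13 over the members and 0.03 over all genes, with 25 of 40 members above 0 (52.8% of all genes). No member had groups that did not overlap, in either direction (0.0993% of all genes were higher and 0.0611% lower without overlap). A 95% interval inside a 2-fold change was found for 30 of 40 members and for 29.2% of all genes, which makes this the most precise of the comparisons.

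Psmd9, the assembly chaperone, had the lowest p of any member in any comparison, at 38.0, 22.5 and 29.6 CPM in WT, 43.3, 42.8 and 36.9 CPM in KO, 127, 51.5 and 43.2 CPM in flox, and 66.8, 73.4, 109.8 and 46.6 CPM in cKO. Its log2 fold change was 1.08 (SE 0.35, adjusted p = 0.777 by edgeR's test), and the exact permutation test over the 13 libraries gave an unadjusted p of 0.0035. The lowest conditional library, 43.2 CPM, lay just below the highest constitutive one, 43.3 CPM. The interval of Psmd9, chr5:123169413-123250131 on the plus strand (mm10), is overlapped by 2 other genes over 17.1% of its length but not at its 3′ end, and the part of those genes in its counts was not tested. Psmc1, an ATPase, was at 294, 389 and 243 CPM in WT, 214, 254 and 279 CPM in KO, 161, 193 and 224 CPM in flox, and 160.3, 212, 233 and 143 CPM in cKO. Its log2 fold change was -0.54 (SE 0.20, adjusted p = 0.812 by edgeR's test), with an exact permutation p of 0.0047. Psmb11 came next, with a log2 fold change of 2.27 (SE 1.19, adjusted p = 0.891 by edgeR's test) and counts of 0 on both sides. Without WT replicate 2 or KO replicate 1, the only constitutive libraries that counted Psmb11, the fitted value was 6.04 and 5.99, and without cKO replicate 2 it was 1.37. Summed ovarian somatic markers were 117 to 181 CPM in the constitutive and 137 to 394 CPM in the conditional libraries, and their part in these values was not tested.

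The genes that build, feed and regulate the proteasome were read in 4 further lists. Of the assembly factors and 19S partners, 10 of 12 genes were tested and none passed edgeR's test in any comparison. The lowest p values were for Psmg2 (log2 fold change 0.88) and Akirin2 (0.52) in KO against WT. In cKO against flox they were for Adrm1 (2.18, SE 1.11) and Ecpas (-0.46), and for the difference of the effects Adrm1 (3.67, SE 1.58) and Pomp (-0.51). Between the crosses they were for Ecpas (-0.34) and Psmg1 (0.37). Adrm1 had 0 to 211 counts in a library, so its fold changes are uncertain. Pomp, which assembles the core, was at 207 to 594 CPM, and Sem1, the small lid subunit, at 85.5 to 653 CPM. Psmg3, an assembly chaperone, had at most 1 count in a library, and Paaf1 was not analysed here.

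None of the 7 transcription factors and their regulators passed the test. Nfe2l1, the factor that raises proteasome genes when the proteasome is inhibited, was at 31.7 to 86.9 CPM, with log2 fold changes of -0.36 (SE 0.45) in KO against WT and 0.01 (SE 0.42) in cKO against flox. The lowest p values in this list were for Keap1 (-2.50) and Nfya (-1.60) in KO against WT, Keap1 (-1.78) and Nfyc (-0.43) in cKO against flox, Ddi2 (-0.53) and Nfyc (-0.69) for the difference, and Nfyc (-0.78) and Nfe2l2 (-0.32) between the crosses.

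In the ubiquitin and shuttle list, 15 of 16 genes were tested and 1 was called. Ubb, a polyubiquitin gene, had 7 to 46 counts in the 6 constitutive libraries and 897 to 1773 in the 7 conditional libraries. It was higher in the conditional cross by 5.77 on the log2 scale (SE 0.33, adjusted p = 3.96e-11 by edgeR's test), in 7 of 7 libraries. Ubb was the only gene called between the crosses among all genes tested (0.00764%). Strain alleles and tamoxifen cannot be told apart in that comparison. The other low p values were for Ubqln2 (1.31) and Uba1 (-0.42) in KO against WT, Ubqln1 (0.51) in cKO against flox, Rps27a (-0.85) for the difference, and Vcp (1.10) between the crosses. The proteasome genes themselves had a median difference of 0.13 between the same libraries.

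Of the antigen presentation and interferon list, 6 of 11 genes were tested and none passed. H2-K1, an MHC class I heavy chain, was counted at 1.94 to 114 CPM, and its lowest p was between the crosses (0.93). The others named by the lowest p were Irf1 (2.31) in KO against WT, where H2-K1 (0.64) came next, and Tapbp in cKO against flox (-5.50), for the difference (-6.58) and between the crosses (-1.55). Tapbp had at most 35 counts in a library and Irf1 at most 65 (SE 1.41 in KO against WT), so their values rest on few reads. H2-D1 was not analysed here.

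Promoters were read for the sites of the factors named above, since GR binds DNA itself and Nfe2l1 and Nfe2l2 drive proteasome genes through antioxidant response elements. RefSeq promoters (GRCm38.p6, 250 bases before to 50 after the start) matched 37 of 44 members with 40 promoters, and Psma8, Psmb1, Psmb2, Psmb7, Psmc3, Psmd3 and Psmd7 had none. The antioxidant core TGACNNNGC, searched on both strands, was in 6 of 40 member promoters (15%) and in 12.4% of all 32851. CCAAT, the box of NF-Y, was in 14 of 40 (35%) against 37.4%, and a GR element written as AGAACA and TGTTCT with 3 bases between was in 0 of 40 against 3 of 32851 (0.00913%). These are matches of letters and not sites. The GR pattern was so rare over all promoters that its absence from 40 cannot show whether the members carry GR elements. The 6 genes with the antioxidant core were Psmb5, Psmb6, Psmc6, Psmd9, Psmd12 and Psme4, at a median of 145 CPM, against 112 CPM for the 31 without. Of these, the promoters of the matched catalytic subunits and of the member with the lowest p are shown 5′ to 3′ on the gene's strand, with the core match in capitals. The match begins at -47 from the start in Psmb5 (chr14:54617946-54618245, minus strand), at -9 in Psmb6 (chr11:70525107-70525406, plus strand) and at -31 in Psmd9 (chr5:123227940-123228239, plus strand).
Psmb5: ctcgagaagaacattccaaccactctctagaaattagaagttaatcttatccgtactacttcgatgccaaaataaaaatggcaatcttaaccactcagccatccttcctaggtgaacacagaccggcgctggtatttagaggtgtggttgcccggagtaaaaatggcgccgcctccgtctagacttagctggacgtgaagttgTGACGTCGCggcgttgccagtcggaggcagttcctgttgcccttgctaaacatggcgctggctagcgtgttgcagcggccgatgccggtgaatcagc
Psmb6: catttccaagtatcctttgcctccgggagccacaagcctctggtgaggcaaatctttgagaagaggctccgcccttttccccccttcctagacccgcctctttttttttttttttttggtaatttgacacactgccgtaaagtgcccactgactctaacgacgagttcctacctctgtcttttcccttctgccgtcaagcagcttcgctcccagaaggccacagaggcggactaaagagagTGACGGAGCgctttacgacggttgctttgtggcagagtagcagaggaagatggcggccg
Psmd9: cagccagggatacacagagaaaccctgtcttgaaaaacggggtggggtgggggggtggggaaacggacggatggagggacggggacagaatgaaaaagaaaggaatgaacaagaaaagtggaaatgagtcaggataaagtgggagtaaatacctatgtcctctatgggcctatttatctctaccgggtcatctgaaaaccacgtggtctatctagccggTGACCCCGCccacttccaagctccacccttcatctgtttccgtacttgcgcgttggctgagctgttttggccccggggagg
The cores of Psmb5 and Psmb6 stand before genes whose mean levels were 19.8 and 150 CPM, and that of Psmd9 before the lowest gene of the 19S particle. The RefSeq start of Psmd9 lies inside its annotated interval, which begins further upstream.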

How the data were processed

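Counts per gene were deposited as 1 table with a column per embryo, made by the authors with cutadapt, STAR 2.6.0 on mm10 and featureCounts 1.6.3, without normalization (tool versions and build from the submitters' processing notes). The annotation, the strand setting and the treatment of reads in overlapping genes are not given in the sources used here. The deposited column of lengths equals the gene interval from start to end. The authors also deposited 2 tables of their own comparisons, made with edgeR 3.28.1 and limma 3.42.2, which hold fold changes and p-values and were not used.

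Columns were matched to samples through the labels. Symbols and intervals came from GENCODE M21, which named 54587 of 55335 genes. Counts were tested with edgeR 4.0.16 in R 4.3.3: filterByExpr (minimum count 10, minimum total 15) kept 13086 genes, libraries were scaled by TMM (factors 0.920 to 1.05), and the quasi-likelihood F test compared 4 group means fitted to all 13 libraries without covariates. P-values were adjusted over all genes by the Benjamini-Hochberg method, and an adjusted p of at most 0.05 was called. Exact permutation tests, two-sided, used mean log2 CPM (prior count 2). On simulated counts with the real spread, the test called 4% of genes changed 2-fold and 44% of those changed 8-fold in KO against WT. The changed genes were drawn at random from all 13086 genes tested. Their median biological coefficient of variation was 0.700, against 0.348 for the members, so these rates are not those of the members. Reads carry no molecular identifiers in the description, so counting limits cover counting error only. RefSeq promoters were searched for motifs as letters on both strands.

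The members, classes and pathway lists were chosen with earlier results of these data known. Values in every library, as CPM or counts, are given for the 3 members with the lowest p in each comparison, the catalytic, immune and tissue-restricted subunits, the extremes of each class and members failing the filter, and for each pathway list the 2 genes with the lowest p per comparison, of which some are not reported here. A gene is named otherwise where its groups do not overlap, where it is among the 5 highest or where it bears on a count, and those were chosen after their values were seen. Alternatives were other normalizations, filters and tools (DESeq2 1.42.0, limma 3.58.1 voom), a fit of the compared groups only, a block for the replicate number, and leaving out each library.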

Additional observations from a re-analysis of the deposited data

Results flagged for a closer look

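Within the 4 cKO libraries, 45 values (the 40 tested members and 5 class sums, in CPM) were examined for a library far from the other 3, and 4 exceeded Dixon's 95% critical value for 4 samples, where chance flags about 1 in 20. Replicate 3 was the highest for Psmc5, an ATPase, at 225 CPM against 123 to 135 CPM in the others, for Psmd1, the scaffold subunit, at 399 CPM against 287 to 303 CPM, and for Psmd10, an assembly chaperone, at 214 CPM against 116 to 131 CPM. Replicate 4 was the only one to count Psme1, at 9.66 CPM against 0 in the others. Groups of 3 were not examined. No member had opposite, non-overlapping changes in the 2 crosses.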

How the results depend on the processing

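The count of members with an adjusted p of at most 0.05 was 0 in all 4 comparisons under every alternative run, and the median log2 fold change of the members stayed within -0.18 to 0.19, positive throughout between the crosses and of either sign in the other comparisons. The number of members with an unadjusted p under 0.05 moved by more than 1.5 times in places. For KO against WT it was 1, against 3 with DESeq2 and 4 with limma voom. Leaving out 1 library gave 1 to 6 for KO against WT (6 without WT replicate 3, 5 without KO replicate 1, 2 without KO replicate 2 or 3) and 1 to 2 for cKO against flox (2 without flox replicate 1, cKO replicate 2 or cKO replicate 4). It gave 0 to 3 for the difference of the effects (3 without WT replicate 3, 2 without KO replicate 1, 1 without WT replicate 2, KO replicate 3 or cKO replicate 4) and 2 to 4 between the crosses (4 without WT replicate 2 or cKO replicate 4). The correlations of deviations between same-numbered libraries were near 0 (-0.02 to 0.06). In the conditional cross they were above the best other pair for replicates 1 (0.06 against -0.03) and 2 (0.04 against 0.01). They were below it for replicate 3 and for every replicate of the constitutive cross. Such small values cannot show whether libraries shared a litter or batch, and the main fit used no pairs. With the replicate block the unadjusted count was 2 for KO against WT and 1 for the difference, and no adjusted p passed. The ratio of the median 19S gene to the median core gene was 1.20 per kilobase of exon instead of 1.54. The fit of the compared groups alone could not be made for the difference and the cross. The fold changes of the members with the lowest p kept their sign, and Psmb11 between the crosses ran from 1.37 to 6.04. The pathway genes were not refitted. The causes were not tested. Psma3, Psmb7, Psmb5, Psmb11, Psme1, Psme2 and the immune subunits rest on few counts.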
